A study of Mus musculus with 39 samples.

Results

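The regions described here are the earliest replicating of the early replication timing (RT) domains of R1 mouse embryonic stem (ES) cells. An RT domain is a stretch of chromosome that is copied at about the same time of S phase, and the deposited list gave each domain a log2 value that is above 0 where replication is early and below 0 where it is late. The members were chosen by these RT values. Among the 749 early domains of the 19 autosomes that did not start at the first base of a chromosome, the 188 domains at or above the 75th percentile were kept. The whole list held 1811 domains, of which 832 were early, and 19 early domains were left out because they started at the first base and 64 because they lay on chromosome X or Y.

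A chromosome is copied from many origins that fire at different times, and neighbouring origins tend to fire together, so that large blocks of DNA share a replication time. In mammalian cells the early blocks are known as the gene-rich and open part of the genome, and the late blocks as the gene-poor part, much of which lies at the nuclear lamina. A nucleosome holds DNA wrapped around a core of histones, and the ends of the wrapped DNA can be bound more or less firmly, which changes how much of it a nuclease can reach.

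All cells were wild-type R1 cells, a line derived from the inner cell mass and grown with serum and leukemia inhibitory factor (LIF). For RT, cells were given BrdU and separated along S phase into 4 fractions by their DNA content in 2 experiments, which made 8 libraries, and the value compared the early with the late fractions. For wrapping, crosslinked chromatin was digested with MNase and precipitated with an antibody against histone H3 in 4 libraries of 2 experiments, and the balance of longer and shorter fragments gave a wrapping index, from which nucleosome wrapping domains (NRDs) were called as tight (TiNRDs, positive score) or loose (LoNRDs, negative score). The other libraries of the study and tracks of single replicates were not analysed here. Each list was a single call that named no replicate, and it gave neither the depth behind a domain nor a spread between replicates. The spreads below are over members or over autosomes, and members that share a chromosome or an NRD are not independent of each other. The files hold no expression values, and the ES cell label could not be checked against marker genes.

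The RT values, on which the members were selected, are given as a description only. They ranged from 0.96 to 1.80 on the log2 scale, with a median of 1.16 and quartiles of 1.05 and 1.37. Just inside the threshold lay chr15:58650001-59900000 and chr17:83100001-88800000, both with a log2 RT of 0.96. Just outside it lay chr9:39950001-41200000 and chr13:40500001-41350000, with log2 values of 0.96 and 0.95. The threshold thus fell within an unbroken run of values and marked no gap in the list. The other early domains were divided by RT into 3 groups of equal number, an upper-middle group down to a log2 RT of 0.72, a lower-middle group down to 0.45 and a lowest group.

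The members were long domains. Their median length was 2100 kb, with quartiles of 1250 and 3812.5 kb, while the 561 other early domains had a median length of 700 kb. The median was 1100 kb in the upper-middle group and 1050 kb in the 849 late domains of the autosomes. In total the members covered 531 Mb, which was 21.6% of the length of the autosomes and 50.4% of the length of the early domains. The 188 members therefore made up about as much DNA as the 561 other early domains together. On all 19 autosomes the median length of the members was above that of the other early domains. No member was shorter than 500 kb, against 138 of the other early domains. Of the early domains with a length of 2 Mb or more, 98 were members and 42 were not. Length and RT value came from the same segmentation of the same track and were not measured independently.

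The longest member was chr17:23300001-36350000, with 13050 kb. It carries much of the mouse major histocompatibility complex, and it held 432 protein-coding genes, the most of all members. Next in length were chr15:75450001-86450000 with 11000 kb and 263 genes, and chr4:131600001-142500000 with 10900 kb and 209 genes. These 3 domains were the longest and also those with the most genes. They were followed by chr5:109500001-118950000 with 9450 kb, and by chr2:28100001-36350000 and chr5:29150001-37400000 with 8250 kb each. At the other end, chr8:74750001-75400000 and chr14:50600001-51250000 measured 650 kb, and chr13:59300001-60000000, chr8:26850001-27550000 and chr9:50400001-51100000 measured 700 kb. The shortest member on chromosome 8 held 6 genes, among them Hmox1, which encodes the heme-degrading enzyme heme oxygenase, and the replicative helicase gene Mcm5. The short member on chromosome 14 held 30 genes, which began with a row of olfactory receptors from Olfr744 to Olfr749.

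The distribution of the members over the chromosomes was uneven. Chromosome 11 had 13 members, which were 40.6% of its early domains and covered 43.4% of the chromosome. Chromosome 13 had 5 members, 10.0% of its early domains, and they covered 6.95% of it. Chromosome 3 was close to that, with 6 members over 7.31% of its length, and chromosome 1, the longest, had 8 members over 9.52%. The number of members thus did not follow the length of the chromosome. On 7 autosomes the last RT domain of the chromosome was a member.

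Most members were early islands between late DNA. Late domains lay on both sides of 111 members, and 65 had a late domain on 1 side and an early one on the other. Early domains flanked 5 members on both sides, and 7 members were the last entry of their chromosome. Of the 369 sides of members with a neighbour in the list, 291 faced a late domain (78.9%), compared with 83.3% of the sides of the other early domains. At 280 of these 291 sides the late domain followed without a gap. The member at such a border had a high value by the rule of selection, and the late domain had an ordinary late value. Each value belongs to a whole domain, so that the step at the border itself was not measured. The late neighbours had a median log2 RT of −0.72, with quartiles of −0.84 and −0.51, and the median was also −0.72 for the late neighbours of the other early domains and for all late domains of the autosomes. The earliest domains thus did not lie next to late domains of unusual value. Where the neighbour was early, it never touched the member, which follows if continuous early stretches are called as 1 domain. A stretch of 50 to 550 kb without a call, with a median of 200 kb, lay in between at all 78 such sides, and at 26 of them the neighbour was a member too.

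Members were mostly held in tight nucleosome wrapping domains. TiNRDs covered 95.1% of the length of the members, LoNRDs covered 3.93%, and 0.978% had no NRD call. Among the other early domains the TiNRD share was 78.0%, with 87.8%, 75.8% and 57.4% in the upper-middle, lower-middle and lowest groups. In late domains it was 23.1%. At similar length the shares of members and other early domains were closer, with 92.6% against 85.8% from 1 to 2 Mb and 96.1% against 89.98% at 2 Mb or more, while between 500 kb and 1 Mb they were 87.9% and 70.8%. The loosely wrapped part of early replicating DNA thus lay mainly in the domains with lower RT values. On all 19 autosomes the TiNRD share was higher in members than in the other early domains, and it was lowest on chromosome 13, with 86.6% in members against 79.4%.

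Counted by domain, 186 of the 188 members (98.9%) lay in TiNRDs for at least 50% of their length, while this held for 79.7% of all 749 early domains. At least 80% of the length lay in TiNRDs for 166 members (88.3%), against 67.4% of all early domains. A TiNRD or several together enclosed 101 members completely (53.7%), which was near the 45.8% of all early domains, and 72 of the 188 members had some part in a LoNRD, against 369 of all 749 early domains. The early domains as a whole include the members, so that these shares are a background and not a separate group. Borders on a grid of 50 kb in the RT list and 100 kb in the NRD list limit how finely such shares can be read.

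The wrapping score of a member was taken as the mean score of the NRDs it overlapped, weighted by the shared length. The score is relative, has no unit, and does not give the number of wrapped base pairs. Its median over the members was 0.77, with quartiles of 0.54 and 1.01, and the range was −0.46 to 1.49. In the other early domains the median was 0.35, with quartiles of −0.18 and 0.61, and the late domains had a median of −0.34. The lower quartile of the members was thus above the median of the other early domains. The medians of the upper-middle, lower-middle and lowest groups were 0.48, 0.34 and 0.08. The score was negative in 5 members, in 181 of the other early domains and in 545 late domains. Member medians were above those of the other early domains on all 19 autosomes, by 0.13 on chromosome 3 and by 0.88 on chromosome 2 at the extremes.

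To compare domains of similar length, the scores were also set side by side within classes of length. Between 500 kb and 1 Mb, 33 members had a median wrapping score of 0.45 and 242 other early domains one of 0.31. From 1 to 2 Mb, the medians were 0.68 for 57 members and 0.47 for 139 others. At 2 Mb or more, they were 0.88 for 98 members and 0.59 for 42 others. Members were higher in each class, but by less than over all lengths, and the interquartile ranges overlapped in every class. In the shortest class the quartiles of the members were 0.27 and 0.65, and those of the others were −0.20 and 0.60.

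The highest wrapping scores came from a few large NRDs. The highest score belonged to chr11:114300001-122082543, the end of chromosome 11, with 1.49 over 97.7% of its length. It held 200 genes, the first of them Rpl38, which encodes a protein of the large ribosomal subunit. Next came chr2:24450001-28050000 with 1.48 and chr2:28100001-36350000 with 1.34, which are separated by a gap of 50 kb and share an NRD of 10000 kb. Ehmt1, the gene of a histone H3 lysine methyltransferase, lay in the former. A score of 1.32 was shared by 3 members of chromosome 15, chr15:72800001-74050000, chr15:75450001-86450000 and chr15:88450001-89750000, since all of them lay inside a single NRD of 17400 kb.

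The 5 members with the lowest scores were shorter than the median member and held 12 genes or fewer each, and their log2 RT ranged from 0.97 to 1.09. In chr19:14300001-15050000 the score was −0.46, because the member lay completely within a LoNRD of 3700 kb. Its log2 RT was 0.97, and its only protein-coding gene was Tle4, which encodes a transcriptional corepressor of the Groucho family. The member chr6:148150001-149736546 had a score of −0.14 and 63.0% of its length in a LoNRD near the end of the chromosome. These were the only members with less than 50% of their length in TiNRDs.

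In 3 further members with negative scores, a short TiNRD sat between or beside loose domains. The member chr15:61650001-62450000 had a score of −0.12 and a log2 RT of 0.98, and its only protein-coding gene was Myc (chr15:61985391-61990374), the growth regulator and oncogene. The start of Myc lay in a TiNRD of 400 kb with a score of 0.46, between LoNRDs with scores of −0.60 and −0.88. A similar arrangement was seen at chr18:20300001-21550000, with a score of −0.01 and a log2 RT of 1.02, where a TiNRD of 900 kb with a score of 0.27 had LoNRDs on both sides. This member held the desmoglein genes Dsg1a to Dsg4 for cell adhesion and Ttr, the gene of the thyroid hormone carrier transthyretin. In chr6:66800001-67600000, with a score of −0.14 and a log2 RT of 1.09, the length was divided equally between a TiNRD and a LoNRD, and the DNA damage response gene Gadd45a was among its 7 genes. Early replication in these members therefore coincided with loose wrapping over 50% or more of the DNA in 4 of the 5 cases.

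Seen from the NRD list, the members occupied a limited number of tight domains. The list held 1243 NRDs on all chromosomes, which is fewer than the paper states. Whether it is another version of the call or a part of it could not be told. The shares given here apply to this list, and no other version of the NRD call was used here. Of the 561 TiNRDs of the autosomes, 186 (33.2%) held some part of a member, and 40.2% of the length of all TiNRDs lay in members. Of the length of the members, as given above, 95.1% lay in TiNRDs, so that the overlap was large as a share of the members and smaller as a share of the TiNRDs. The 141 TiNRDs at or above the 75th percentile of TiNRD scores (0.71) had 58.6% of their length in members. The other TiNRDs had 18.04%, and LoNRDs had 1.87%. Member DNA was thus concentrated in the tightest domains of the NRD list.

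Some NRDs held several members, in places with late DNA between them. Up to 3 members lay in a single TiNRD, and 31 of the 186 TiNRDs held parts of 2 or more. Of the 169 pairs of consecutive members on a chromosome, 43 shared an NRD. In 36 pairs a single late RT domain and nothing else lay between the members. Of all 849 late domains of the autosomes, 188 (22.1%) lay entirely in TiNRDs. In 17 of the 36 pairs the late domain lay entirely inside a TiNRD common to both members. These enclosed late domains had a median log2 RT of −0.54, and the median distance between the members was 550 kb. At these places the RT list changed from early to late and back while the wrapping call did not change. The wrapping index was smoothed over bins of 100 kb before NRDs were called, so that a change over so short a distance could be missed. The 22.1% is no matched background, since it covers late domains of all lengths, with a median of 1050 kb. The lowest RT value of such an enclosed late domain was −0.85, on chromosome 19. It lay between chr19:3200001-7800000, with a log2 RT of 1.80, and the next member, with 1.41, which were 600 kb apart.

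Genes were dense in the members. With genes assigned by the 5′ end, the members held 10402 of the 20807 autosomal protein-coding genes of GENCODE M21, which is 50.0% of the genes on 21.6% of the autosome length. This came to 19.6 genes per Mb, compared with 9.85 in the other early domains and 3.54 in late domains. The median member had 36.5 genes, with quartiles of 17 and 77.25. Every member had at least 1 protein-coding gene, as did every domain of the upper-middle group, whereas 3 domains of the lower-middle group, 19 of the lowest group and 132 of the 849 late domains had none. On all 19 autosomes the density was higher in members, and on chromosome 11 they held 72.2% of the genes. Within the classes of length the densities were 16.1 against 9.88 genes per Mb between 500 kb and 1 Mb, 15.97 against 9.79 from 1 to 2 Mb, and 20.5 against 10.2 at 2 Mb or more. Gene density thus differed in domains of similar length too.

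The genes of the members were short. Their median length was 15.4 kb, with quartiles of 6.70 and 34.6 kb, while it was 27.9 kb in the other early domains. Late domains had the shortest median, 13.2 kb, with an upper quartile of 58.8 kb. Genes of 500 kb or more numbered 17 in the members, 44 in the other early domains and 148 in the late domains. A median of 59.5% of a member was covered by the bodies of protein-coding genes, against 50.1% in the other early domains and 26.8% in late domains. The members therefore differed from the other early domains more in the number of genes than in the share of DNA that genes occupied. MicroRNA genes were also denser, with 1.75 per Mb in members and 1.05 in the other early domains. The upper-middle, lower-middle and lowest groups had 0.95, 1.45 and 0.63 per Mb, so that this density did not fall steadily with RT.

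The member with the highest RT value, chr19:3200001-7800000 (log2 1.80), held 183 genes, which began with Mrpl21 of the mitochondrial ribosome, Ighmbp2 and Cpt1a, the gene of the enzyme that brings long-chain fatty acids into mitochondria, and also included Lrp5, a Wnt co-receptor. It was followed by chr10:126650001-129200000 (1.79, 110 genes), which held Cyp27b1, the gene of the enzyme that activates vitamin D. Then came chr11:93600001-99400000 (1.76, 151 genes) with the nucleoside diphosphate kinase genes Nme1 and Nme2, and chr4:131600001-142500000 (1.76) with Srsf4, a splicing factor gene. The wrapping scores of these 4 members were 1.07, 0.77, 1.10 and 1.29, so that all of them were at or above the median of the members.

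In the following ranks, chr7:18600001-20150000 (1.76, 68 genes) began with a cluster of pregnancy-specific glycoprotein genes such as Psg23, and chr9:20300001-22800000 (1.74, 77 genes) with the olfactory receptor gene Olfr18, followed by zinc finger genes such as Zfp560 and Zfp26. A cluster of genes for hair keratins and keratin-associated proteins opened chr11:99950001-104750000 (1.70, 151 genes), and Phc2 of the Polycomb group lay in chr4:128550001-131200000 (1.67, 54 genes). The long member of chromosome 17 (1.65) and chr8:104950001-107900000 (1.65, 84 genes), which began with carboxylesterase genes such as Ces2g, completed the 10 members with the highest values. The genes named for these domains are among the first by position and do not stand for the rest of their genes.

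The density was highest in a short member next to the long one on chromosome 17. There chr17:36600001-37400000 held 37 genes in 800 kb, or 46.25 per Mb, with class I genes of the histocompatibility complex (H2-M9, H2-M1) and Trim genes. The member chr14:50600001-51250000 had nearly the same density, 46.2 per Mb, and chr7:18600001-20150000 had 43.9. The wrapping scores of these members were 0.05, 0.34 and 1.03. High gene density was therefore not always accompanied by a high wrapping score.

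Sequence composition differed as well. The median A/T content of the members was 54.7%, with quartiles of 53.2% and 56.1%, compared with 57.2% in the other early domains, 59.9% in late domains and 58.1% over the autosomes. A/T content was lower in members on 18 of the 19 autosomes. The exception was chromosome 13, with 57.3% in its 5 members and 57.2% in its other early domains. CpG dinucleotides had a median of 11.5 per kb in members, 9.69 in the other early domains and 6.46 in late domains. Members thus had the lowest median A/T content and the highest CpG density of these sets. At similar length the medians of A/T content in members and other early domains were closer, with 56.5% against 57.4% between 500 kb and 1 Mb, 55.3% against 56.5% from 1 to 2 Mb and 53.7% against 55.8% at 2 Mb or more. Bases marked as repeats made up 29.7% of the median member and 29.9% of the median other early domain, against 34.5% in late domains, so that the medians of members and other early domains were close and the late median was higher, with overlapping quartiles. MNase is known to cut preferentially at A/T, and the part of base composition in the wrapping scores was not tested.

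Among the early groups, the CpG number of promoters did not follow that of the domains, while late domains were lower in both. RefSeq gave a promoter sequence for 8242 protein-coding genes with their start in members, and the 250 bases before the start held a median of 13 CpG, with quartiles of 5 and 20. The medians were also 13 in the upper-middle and lower-middle groups, 12 in the lowest group and 2 in late domains. At least 15 CpG were found in 43.8% of the promoters in members, in 46.6% of those in the upper-middle group, in 16.9% of those in late domains and in 37.9% of all. The promoters of members were thus like those of other early genes in CpG number, although whole members had more CpG per kb.

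To show this range, 120 bases before the RefSeq start are printed for 4 genes of members and for 2 genes of a late domain, with every CpG in capitals (RefSeq, GRCm38.p6, no overlap with a GENCODE exon). The genes from members are Timeless and Cdc6, which act at replication forks and in origin licensing, Stat3, which carries the LIF signal to the nucleus, and Tdgf1, the co-receptor of Nodal. For Timeless and Cdc6 the RefSeq start lies inside the gene as GENCODE draws it, and for the other 4 genes the sequence lies directly upstream of the gene. The late genes are olfactory receptors in a domain of 900 kb with a log2 RT of −1.05, which followed the member chr11:71950001-73400000 (1.19) without a gap and was followed in turn by a member that started at 74300001 (1.52).
Timeless, chr10:128237946-128238065, plus strand: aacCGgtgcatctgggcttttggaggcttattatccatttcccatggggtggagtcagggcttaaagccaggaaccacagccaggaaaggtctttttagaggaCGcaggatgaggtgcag
Cdc6, chr11:98908031-98908150, plus strand: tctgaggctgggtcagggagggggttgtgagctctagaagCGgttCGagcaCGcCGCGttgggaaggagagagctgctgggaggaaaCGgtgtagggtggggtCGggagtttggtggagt
Stat3, chr11:100939541-100939660, minus strand: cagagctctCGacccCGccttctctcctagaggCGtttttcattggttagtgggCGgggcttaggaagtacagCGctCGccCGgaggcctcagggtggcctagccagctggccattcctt
Tdgf1, chr9:110946159-110946278, minus strand: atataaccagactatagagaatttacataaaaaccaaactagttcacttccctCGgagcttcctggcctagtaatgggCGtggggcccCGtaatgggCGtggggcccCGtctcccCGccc
Olfr378, chr11:73428478-73428597, minus strand: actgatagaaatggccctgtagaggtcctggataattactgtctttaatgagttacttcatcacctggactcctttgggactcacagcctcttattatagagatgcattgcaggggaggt
Olfr382, chr11:73517198-73517317, minus strand: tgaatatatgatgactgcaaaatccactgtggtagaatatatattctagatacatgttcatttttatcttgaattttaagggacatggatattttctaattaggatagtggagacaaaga
The printed stretch held 7 CpG for Cdc6 and Stat3, 6 for Tdgf1, 2 for Timeless and 0 for either olfactory receptor. Genes of members thus included promoters with many and with few CpG.

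Genes of pluripotency were found in early DNA throughout, and about as often in members as genes in general. Of 33 listed factors, 17 had their start in members (51.5%, against 50.0% of all autosomal protein-coding genes), 10 in the upper-middle group, 6 in the lower-middle group and 0 in late domains, where 21.2% of all genes lay. The 17 genes lay in 15 members. The highest RT values belonged to the members with Lin28a, which encodes an RNA-binding protein that blocks maturation of let-7 (log2 1.76), Stat3 (1.70) and Pou5f1, the gene of Oct4 (1.65). Pou5f1 (chr17:35506018-35510772) lay in the long member of chromosome 17, in a TiNRD with a score of 1.31.

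Further transcription factor genes in members were Tbx3 (1.57), Klf2 (1.54), Sall4 (1.41), Esrrb (1.24), Utf1 (1.05) and Myc (0.98). Nanog, a central factor of pluripotency, and its neighbour Dppa3, a maternal factor, shared a member with a log2 RT of 1.28, and the score of their NRD was 0.45. Signalling genes in members were Tdgf1 (1.41), Nodal (1.34) and Fgf4 (1.07). The methylcytosine oxidase gene Tet1 lay in the same member as Nodal (1.34), Dnmt3l, the cofactor of de novo DNA methylation, had 1.25, and Dppa5a had 1.08. Core factors of the network were thus divided between the members and the other early domains, since Klf4 (0.83) and Zfp42 (0.80) lay in the upper-middle group and Sox2 (0.72) in the lower-middle group. The wrapping score was positive at all 17 pluripotency genes in members, with a median of 1.05, and at 13 of the 16 outside them, with a median of 0.42. The exceptions were Zfp42 (−0.76) and Dppa2 and Dppa4 (both −0.56). TiNRDs covered 95.1% of the length of all members and 78.0% of that of the other early domains. Positive scores were thus common in both sets, and these counts set the listed genes apart from neither. The share over all genes is not given here.

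Genes of the replication machinery were in members in 23 of 39 cases (59.0%, against 50.0% of all genes), and 3 lay in late domains (7.69%, against 21.2%). The differences were not tested. Origin recognition and licensing was represented by Cdc6 (log2 RT 1.76), Orc6 (1.52), Cdt1 (1.30), Orc1 (1.08) and Orc3 (0.97). Of the helicase and its activators, Mcm7 had 1.56, Gins2 1.30, Ticrr 1.26, Mcm4 and Cdc45 1.26 in a shared member, Gins3 1.22 and Mcm5 1.13. Members with genes of polymerases and of the sliding clamp were those of Prim1 (1.79), which makes primers, Pold1 (1.32), Pole (1.29) and Pcna (1.01). The clamp loader genes Rfc2 (1.56), Rfc5 (1.29), Rfc1 (1.19) and Rfc4 (1.09), the genes Rpa2 (1.76) and Rpa1 (1.52) of the single-strand binding protein, and Timeless (1.79) completed the set. Neither the Mcm nor the Orc genes were all in members, since Mcm2, Mcm3, Mcm6 and Mcm10 and Orc2, Orc4 and Orc5 lay elsewhere. Orc4, with a log2 RT of −0.94, was the listed replication gene in the latest domain. Although Mcm4 and Orc1 lay in members, the NRD at their start was loose, with scores of −0.23 and −0.24.

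Genes for protein synthesis and turnover were frequent in members. Cytosolic ribosomal protein genes were there in 53 of 77 cases (68.8%), spread over 40 members, with Fau (1.80), Rpl41 and Rps26 (both 1.79) at the highest RT values. Mitochondrial ribosomal protein genes were there in 50 of 78 cases (64.1%), with Mrpl21, Mrpl11 and Mrpl49 all in the member of highest value. Proteasome genes were there in 26 of 38 cases (68.4%), with Psmb3 and Psmd3 at 1.76. These shares were above the 50.0% of all genes, and the difference was not tested. The longest member alone held 6 genes of the first list.

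Gene clusters fell into members as blocks, so that their counts reflect few domains. Hox genes, which set position along the body axis, were in members in 19 of 39 cases (48.7%, near the 50.0% of all genes), and these came from 2 members. The Hoxb cluster, Hoxb1 to Hoxb13, lay in chr11:93600001-99400000 (1.76) and 9 Hox genes lay in chr15:101750001-104043685 (1.53), while the clusters of chromosomes 6 and 2, with 11 and 9 genes, lay in upper-middle domains (0.92 and 0.76). Replication-dependent histone genes, whose messages are made in S phase, were in members in 11 of 66 cases (16.7%, against 50.0% of all genes), and 10 of these lay in 1 member of chromosome 3 (1.31), among them Hist2h2ab and Hist2h4. Most histone genes lay in a pair of upper-middle domains of chromosome 13, which held 23 and 20 of them with log2 RT of 0.89 and 0.84. Both of these domains lay in DNA with a negative wrapping score at the genes (−0.16 and −0.09). A list of related genes in 1 cluster thus says no more than the RT value of that cluster.

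Some clusters were split between a member and the late domain next to it. Keratin genes were in members in 44 of 53 cases (83.0%, against 50.0% of all genes, not tested), from 4 members on chromosomes 11 and 15. On chromosome 11 the members on either side held 7 and 15 keratin genes, with Krt222 and Krt10 in the former and Krt33a in the latter, and the late domain of 550 kb between them (−0.72) held 5, all within a TiNRD with a score of 1.10. The protocadherin genes for neuronal surface identity were in members in 35 of 67 cases (52.2%, near the 50.0% of all genes). Late domains held 31 of them (46.3%, against 21.2% of all genes, not tested). Those of chromosome 18 were arranged like the keratin genes of chromosome 11. There 9 genes, Pcdha1 to Pcdha9, lay in chr18:33650001-37000000 (1.54), 24 in the late domain of 500 kb that followed (−0.57), and 26 in the member chr18:37500001-39200000 (1.37), all in a TiNRD with a score of 0.69. At both clusters the change of RT took place inside a gene family and inside a single TiNRD call. The scores are those of the whole TiNRDs, which also cover the members on either side, and the index was smoothed before the call. The wrapping of the late stretches alone was thus not measured here.

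Receptor families of the nose had a smaller share in members than the 50.0% of all genes, and a larger share in late domains than the 21.2% of all genes. Olfactory receptors were in members in 150 of 1128 cases (13.3%) and in late domains in 793 (70.3%). Vomeronasal receptors were in members in 26 of 327 cases (7.95%) and in late domains in 250 (76.5%). The 150 olfactory receptor genes came from 27 members, with 17 genes each in chr11:49400001-52750000 (1.15) and chr17:36600001-37400000 (1.03), and with 12 in the second-highest member of the list on chromosome 10, such as Olfr9 and Olfr763. Vomeronasal genes in members included Vmn1r91 (1.76) and Vmn2r114 (1.65). Zinc finger genes, many of which encode DNA-binding repressors, were in members in 283 of 455 cases (62.2%, against 50.0% of all genes) from 89 members, with Zbtb39 (1.79) and Zfp652 (1.76) at the highest values. These differences from all genes were not tested, and neighbouring genes of a family share a domain.

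Markers of other lineages were in members too. Of 18 genes of primitive endoderm and trophectoderm, 4 were in members (22.2%, against 50.0% of all genes), the keratin genes Krt8 and Krt18 (1.53), Hand1 (1.38) and Eomes (0.98). Of 18 neural and mesoderm genes, 9 were in members, which is the same share as among all genes (50.0%). They were the heart factor Nkx2-5 (1.65), Nes for the filament protein nestin (1.58), Tbx5 (1.57), Tbx6 (1.46), the muscle factor Myod1 (1.32), Tubb3 (1.30), Mesp1 (1.26), Neurog1 (1.24) and Sox1 (1.00). How strongly any of these genes was expressed was not measured in the lists.

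The RT values of the members were also set beside their other features. Across the 188 members the log2 RT had a Pearson r of 0.54 with the wrapping score (Spearman 0.54), of 0.61 with genes per Mb (0.62) and of −0.58 with A/T content (−0.57). It was 0.52 with CpG per kb (0.47), 0.44 with length (0.45) and 0.09 with the share of repeats (0.11). In the 561 other early domains the Pearson r was 0.33 for the wrapping score (Spearman 0.32), 0.18 for genes per Mb (0.30) and −0.36 for A/T content (−0.35). There it was 0.32 for CpG per kb (0.31), −0.14 for the share of repeats (−0.10) and 0.51 for length (0.63). These values describe domains that share chromosomes, NRDs and base composition, the members were chosen on the RT value itself, and the features are related among themselves. They are given as a description and support no comparison.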

How the data were processed

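The authors trimmed reads with cutadapt 4.3, aligned them to mm10 with Bowtie2 2.5.1, and used Picard, SAMtools and bedtools 2.30.0, per the submitters' processing notes. For RT, the log2 value deposited by the authors compares early with late fractions in windows of 50 kb after quantile normalization. For wrapping, the score deposited by the authors is a z-transformed and smoothed index in bins of 100 kb. Domains of both lists were called with a compartment finder, and how bins were combined into the value of a domain is not given in the sources used here, nor whether both RT experiments entered the list. Both value columns of the 2 lists were used.

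Overlaps, medians and quartiles were computed with Python 3.11.15, numpy 2.4.6, pandas 2.3.3 and scipy 1.17.1, and the code was tested on simulated data. Genes came from GENCODE M21 and sequence from GRCm38, since on 20 of 21 chromosomes the final RT domain stopped at the chromosome's end in that assembly and 0 domains reached beyond it. No test was made, because the lists hold no replicate. The members and gene lists were chosen with earlier results of these data known. Members were named by rule: the 10 highest RT values, the 5 longest, 3 shortest, 3 richest and 3 densest in genes, the 5 highest and 5 lowest wrapping scores, and 2 on either side of the threshold, with ties. Genes were named if on the pluripotency or replication list and in a member, otherwise up to 10 per list by RT value or up to 8 per named member in order of position. Domains and genes outside the members, and the clusters with most genes of a list, were picked after their values were seen. Promoters came from the highest-value members with such genes and from late domains of the lowest RT, where RefSeq gave a stretch free of exons. The alternatives were other percentiles, domains at the first base, chromosomes X and Y, a length minimum, other measures of overlap, score, genes and A/T content, length classes, and each autosome left out.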

Additional observations from a re-analysis of the deposited data

How the results depend on the processing

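The results were recomputed with 1 choice changed at a time, which gave 62 values besides those with an autosome left out. Differences between members and other early domains kept their direction in each length class with members, while the other results are levels without a direction. Of the 62 values, 46 stayed within 1 standard deviation over the 19 autosomes, or within 1.5 times for a count, and 16 moved further. At the 90th percentile there were 75 members at or above a log2 RT of 1.25, with a median length of 3400 kb, a median wrapping score of 0.98, 23.8 genes per Mb and 53.3% A/T. The share in TiNRDs was 98.9% when counted as members with at least 50% of their length and 88.3% with at least 80%. The wrapping score was 0.93 as a median over bases, and A/T content outside repeats was 53.5%. Within length classes the members exceeded the other early domains in score by 0.14 (500 kb to 1 Mb) and 0.21 (1 to 2 Mb), against 0.42 over all lengths. Their A/T content differed by −0.91 and −1.22 percentage points, against −2.55, and their TiNRD share by 6.80 (1 to 2 Mb) and 6.07 (2 Mb or more), against 17.1. For domains under 500 kb no value could be given, since there were 0 members. With each autosome left out in turn and the threshold taken anew, the number of members was 173 to 182, the threshold 0.93 to 0.98, the median length 1950 to 2100 kb, the TiNRD share 94.9 to 95.4%, the wrapping score 0.75 to 0.81, the density 19.0 to 20.0 genes per Mb and A/T content 54.6 to 54.9%. No paired analysis was possible because the lists hold no replicate columns. The lists do not give the depth behind a domain, and the wrapping index was smoothed before NRDs were called. Both limit how closely values and borders can be read.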

Other observations

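Tight wrapping also occurred without a member. Of the 141 TiNRDs at or above the 75th percentile of TiNRD scores, 38 held no part of a member, with a median length of 1750 kb against 4500 kb for those that did. Late RT domains made up over 50% of the length of 17 of these TiNRDs, and 9 held no early RT domain at all. The highest score among them was 1.35 at chr14:3700001-8600000, a domain with 98 protein-coding genes and 76.5% of its length in late RT domains. Another, chr8:19500001-21000000, had a score of 1.33 with 63.3% in late domains and none in early ones. The TiNRD chr11:3100001-7500000 (0.99) lay for 93.2% of its length in an early domain with a log2 RT of 0.98, which was above the threshold but not a member because it started at the first base of the chromosome. These domains were picked after their values were seen.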
